A study of Mus musculus with 19 samples.

Results

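The 10 genes of macrophages and of antigen presentation described here were measured in quadriceps muscle of the knock-in mouse model of spinal and bulbar muscular atrophy. They were chosen by name and taken from every array probe annotated to them: Cd68, Emr1, Itgam, Csf1r, Cd14 and Lyz2 as macrophage surface and lysosome genes, Ccl2 as a chemokine gene, and Cd74, H2-Aa and H2-Ab1 as class II antigen presentation genes. The 10 genes were measured by 17 of the 39429 probes on the array, and all 17 were among the 32026 probes tested. AR113Q mice carry an expanded polyglutamine tract in the androgen receptor, knocked into the endogenous gene, and CTR mice are wild type. All mice were C57Bl6J males, their quadriceps was taken at 180 days of age, and they were fed a normal chow diet (NCD) or, from 40 days of age, a high-fat diet (HFD). On the NCD there were 5 arrays of each genotype, and on the HFD 4 of CTR and 5 of AR113Q muscle, called CTR-NCD and so on below. The labels do not say that each array held a separate mouse, so the p-values measure the spread between these samples.

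Resident macrophages of skeletal muscle clear debris and, after injury, are joined by monocytes that enter from blood. The chemokine encoded by Ccl2 draws those monocytes through their receptor Ccr2. Class II molecules pair an alpha chain such as H2-Aa with a beta chain such as H2-Ab1, are held by the invariant chain Cd74 until a peptide is loaded, and present that peptide to CD4+ T cells.

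The probes that carry the results below were those of Ccl2 and Itgam, and they are shown because the Ccl2 probe gave the main difference between genotypes and the 3 Itgam probes did not move alike. Ccl2 was read by 10 spots of 1 probe, on mm9 chr11:81850650-81850709, plus strand. The Itgam probes lay on the plus strand at chr7:135261755-135261814 for probe 1, of which the first 30 bases are shown with a run of CA repeats in capitals, at chr7:135260275-135260334 for probe 2 and at chr7:135212140-135212199 for probe 3.
Ccl2: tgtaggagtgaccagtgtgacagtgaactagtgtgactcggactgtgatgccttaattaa
Itgam probe 1: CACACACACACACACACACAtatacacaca
Itgam probe 2: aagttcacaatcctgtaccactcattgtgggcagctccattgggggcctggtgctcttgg
Itgam probe 3: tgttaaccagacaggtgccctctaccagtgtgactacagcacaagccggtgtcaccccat

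Signals are given as log2 relative to the 75th percentile of the same array, so that 0 stands for that percentile, and levels of different probes are not compared. Per array, 67.1% to 80.1% of probes rose well above background. All member probes were well above background on all 19 arrays except Cd68 probe 2, which was so on 17, and none was saturated. A difference was counted at an adjusted p under 0.05 in limma, with Benjamini-Hochberg adjustment over the 32026 probes. In bulk muscle, fewer cells of a type and less RNA per cell cannot be told apart. Muscle fiber genes themselves differed between genotypes. Of 6 tested, 5 were lower in AR113Q muscle over both diets, against 16% of all genes. Among them was the creatine kinase gene Ckm, lower by 0.71 on the log2 scale (adjusted p = 7.78e-08, limma), and the other gene had 0.31. The list held no slow-fiber genes, and over the settings tried 2 to 5 of its genes were lower. The part of muscle fiber genes in the results was not tested.

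Ccl2 was the member that differed most between genotypes. Its signal in CTR-NCD arrays was -1.50, -1.70, -2.40, -1.46 and -2.47, and in AR113Q-NCD arrays -2.56, -1.89, -2.54, -2.13 and -3.29. On the HFD it was -2.28, -1.99, -2.01 and -1.61 in CTR arrays and -3.30, -3.27, -3.18, -3.04 and -3.43 in AR113Q arrays. The AR113Q-HFD arrays were all below all arrays of the 3 other groups but the lowest AR113Q-NCD array, and they were spread less than any other group, whereas the groups on the NCD overlapped. The means were -1.91 ± 0.49 in CTR-NCD (SD, n = 5), -2.48 ± 0.53 in AR113Q-NCD (SD, n = 5), -1.97 ± 0.28 in CTR-HFD (SD, n = 4) and -3.24 ± 0.14 in AR113Q-HFD (SD, n = 5).

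On the HFD, Ccl2 was lower in AR113Q muscle by 1.27 ± 0.26 (SE) on the log2 scale, 0.414 of the CTR level, with a 95% interval of 0.284 to 0.605 (adjusted p = 0.00229, limma). The exact permutation test gave p = 0.00794 (2-sided, 126 splits), the smallest p that 5 arrays against 4 allow. On the NCD the difference was -0.58 ± 0.24 (SE), with an adjusted p of 0.125 in limma and an exact permutation p of 0.103. Same-numbered arrays of these 2 groups deviated together and also shared a slide, so that pairing cannot choose between replicate number and slide as a block. With the replicate number as a block the NCD difference passed the threshold (adjusted p = 0.0282, limma). With the slide as a block it did not (adjusted p = 0.0763, limma). Both blocks gave -0.58, and they differ only in where CTR-HFD replicate 4, on slide 5, is placed. Within slides, Ccl2 was lower in AR113Q in 5 of 5 slides on the NCD, by 0.14 to 1.06 in size, and in 4 of 4 slides on the HFD. Over both diets Ccl2 was lower by 0.92 ± 0.18 (SE; adjusted p = 0.000721, limma), 0.527 of the CTR level.

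The effect of genotype on Ccl2 was not shown to differ between diets. The interaction was -0.70, with a 95% interval of -1.45 to 0.06, an unadjusted p of 0.0672 and an adjusted p of 1 in limma. Within AR113Q muscle, Ccl2 was at -0.76 on the HFD relative to the NCD (adjusted p = 0.533, limma), and within CTR muscle at -0.07 (adjusted p = 0.982, limma). The 10 spots of the Ccl2 probe on an array had a median SD of 0.11 and a highest SD of 0.154.

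**Figure D1:**
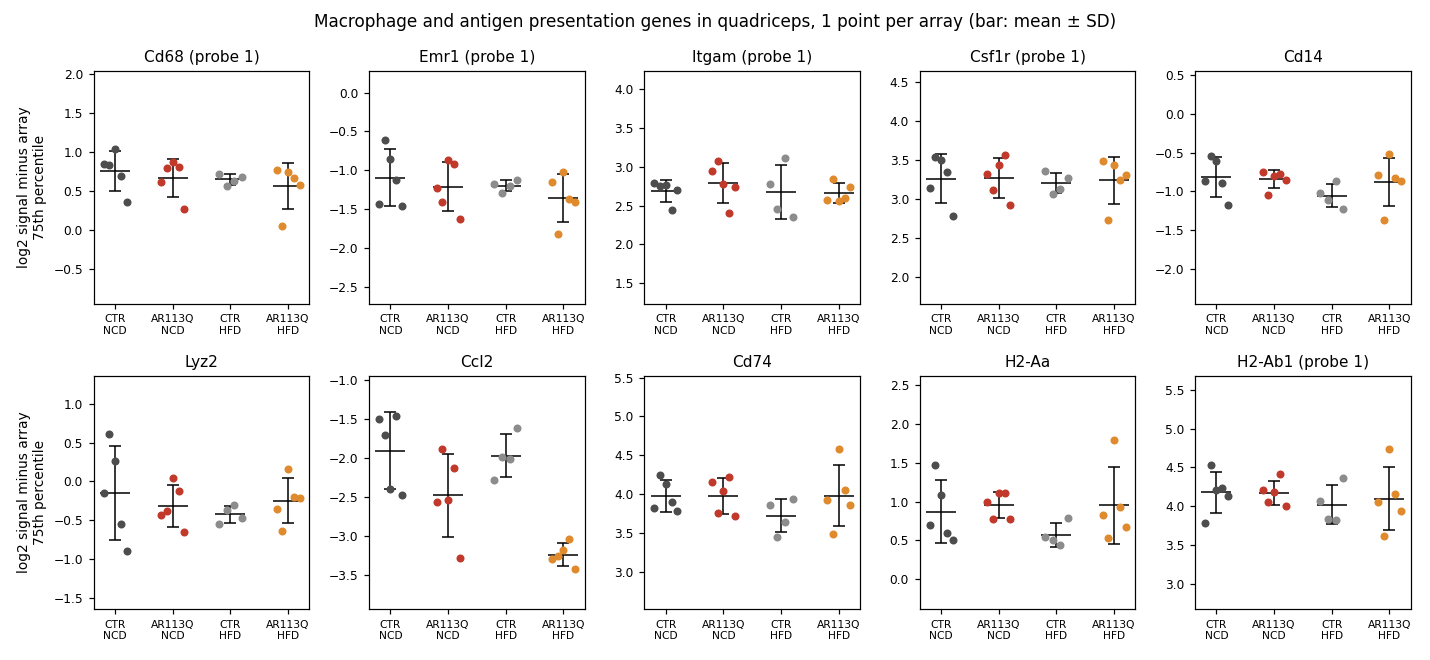
Signal of each member gene (probe 1 where a gene has several) in every array, as log2 relative to the array's 75th percentile, in the 4 groups, with bars for mean ± SD. The AR113Q-HFD points for Ccl2 lie between -3.43 and -3.04, below all CTR-HFD points, while for the other genes the groups overlap in the comparisons of the same diet.

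Emr1, Csf1r, Cd68, Cd14 and Lyz2 had 0 probes past the threshold in limma, adjusted or unadjusted, in either comparison of genotypes within a diet. Emr1, which encodes the F4/80 antigen of mouse macrophages, was at -1.10 ± 0.37 in CTR-NCD, -1.21 ± 0.32 in AR113Q-NCD (SD, n = 5 each), -1.20 ± 0.07 in CTR-HFD (SD, n = 4) and -1.35 ± 0.31 in AR113Q-HFD arrays (SD, n = 5) by probe 1. Its genotype difference over both diets was -0.13 by probe 1 and 0.01 by probe 2, with adjusted p-values of 0.503 and 0.96 in limma. Both probes gave overlapping groups on either diet.

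Csf1r encodes the receptor for the growth factor on which most macrophages depend. Probe 1 gave 3.26 ± 0.32, 3.27 ± 0.26, 3.21 ± 0.13 and 3.24 ± 0.30 in CTR and AR113Q arrays on the NCD and in CTR and AR113Q arrays on the HFD (SD, n = 5, 5, 4 and 5). The genotype difference over both diets was 0.02, with a 95% interval of -0.23 to 0.28, and the other 2 probes gave 0.07 and -0.04. None of the Csf1r probes passed the threshold.

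Cd68, a lysosomal membrane protein of phagocytes, differed between genotypes by -0.09 over both diets by probe 1 (95% interval -0.32 to 0.14). Probe 2 of Cd68 was near background, between -6.67 and -4.93. Cd14, the co-receptor that hands bacterial lipopolysaccharide to Toll-like receptors, differed by 0.07 (95% interval -0.14 to 0.29). Lyz2, the macrophage and neutrophil lysozyme, differed by 0.01 (95% interval -0.35 to 0.36), and the near-identical paralog Lyz1, whose RNA the probe may share, by -0.26 (adjusted p = 0.175, limma).

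Itgam encodes the CD11b integrin chain of macrophages and neutrophils, and its 3 probes did not give the same result. Probe 2 was at -1.45, -2.15, -1.80, -1.06 and -1.72 in CTR-NCD and at -2.03, -2.95, -2.19, -1.84 and -2.89 in AR113Q-NCD arrays. On the HFD it was at -1.36, -2.17, -1.88 and -1.85 in CTR and at -1.95, -2.97, -2.35, -1.91 and -2.96 in AR113Q arrays. The groups overlapped on both diets, and the arrays of the second slide were the lowest of each group. Its genotype difference over both diets was -0.68 ± 0.20 (SE; adjusted p = 0.0168, limma), 0.625 of the CTR level.

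By diet, Itgam probe 2 differed by -0.74 on the NCD (adjusted p = 0.0759, limma) and by -0.61 on the HFD (adjusted p = 0.178, limma). Of its spread within groups, 90.0% lay between slides, against a median of 42.2% over all probes, and within slides it was lower in AR113Q in 5 of 5 slides on the NCD and 4 of 4 on the HFD. With the slide as a block both differences passed, at adjusted p = 0.000309 and 0.000436 in limma. With the replicate number as a block they passed at adjusted p = 0.00147 on the NCD and 0.0196 on the HFD (limma). Probe 3 had 94.4% of its spread within groups between slides, and its arrays lay between -1.82 and -1.59 on slide 1 and between -3.20 and -2.66 on slide 5. Its genotype difference was -0.17 over both diets (adjusted p = 0.648, limma) and, with the slide as a block, -0.14 (adjusted p = 0.128, limma). Probe 1, which contains the CA repeats, differed by 0.04 (adjusted p = 0.802, limma).

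The class II genes were at similar levels in the 4 groups. Cd74 was at 3.98 ± 0.21 in CTR-NCD, 3.98 ± 0.23 in AR113Q-NCD (SD, n = 5 each), 3.72 ± 0.22 in CTR-HFD (SD, n = 4) and 3.98 ± 0.40 in AR113Q-HFD arrays (SD, n = 5). H2-Aa was at 0.70, 1.47, 1.09, 0.60 and 0.50 in CTR-NCD, at 1.0, 0.78, 1.11, 1.12 and 0.77 in AR113Q-NCD, at 0.55, 0.51, 0.44 and 0.78 in CTR-HFD and at 0.83, 0.53, 1.79, 0.94 and 0.67 in AR113Q-HFD arrays. A single AR113Q-HFD array, replicate 3, was the highest of all 19 for H2-Aa, for Cd74 and for both H2-Ab1 probes.

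H2-Aa had the largest positive genotype difference among the members, 0.38 on the HFD (95% interval -0.09 to 0.86; adjusted p = 0.29, limma), and Cd74 differed by 0.26 there (adjusted p = 0.38, limma). On the NCD these differences were 0.08 and 0.00, and their adjusted p-values were 0.856 and 0.998. H2-Ab1 differed by 0.08 and 0.03 on the HFD by its 2 probes, which share 51 bases. The diet difference in CTR muscle was negative for all 4 class II probes, between -0.30 and -0.14, with adjusted p-values of 0.744 or more in limma.

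Counted over all member probes, 0 of 17 passed on the NCD, 1 of 17 on the HFD and 2 of 17 over both diets, all of them lower. Among all probes tested, 17.6%, 17.9% and 29.3% passed in these comparisons, and 9.28%, 9.93% and 16% passed as lower. With median centring the split of all probes turned, to 4.67% higher and 2.99% lower on the HFD against 8% and 9.93%. Over both diets it turned to 11.1% higher and 8.45% lower against 13.3% and 16%. Quantile normalization turned it as well, to 10.3% and 7.84% on the HFD and 16.9% and 13.9% over both diets. So did the authors' values, with 9.67% and 7.29% on the HFD and 16.4% and 13.4% over both diets. Under normexp correction the split did not turn, with 1.19% and 1.72% on the HFD and 3.32% and 3.86% over both diets. The excess of lower over higher calls among all probes therefore depended on the scaling. At an unadjusted p under 0.05, 2 member probes passed on the NCD, Ccl2 and Itgam probe 2, where 28.5% of all probes did. Ccl2 was the 1 member probe whose AR113Q-HFD and CTR-HFD arrays did not overlap, where 15.7% of all probes did not, and on the NCD all 17 members overlapped, where 15.6% of all probes did not. The median difference of the 17 probes was -0.04 on the NCD, 0.03 on the HFD and 0.01 over both diets, against -0.05, -0.07 and -0.06 over all probes.

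Ccl2 and Itgam probe 2 were left out here because they passed over both diets, so the other 15 probes were chosen from these values. Estimates for the 15 over both diets lay between -0.17 and 0.23. Taken probe by probe, the outermost ends of their 95% intervals were 0.633 and 1.47 of the CTR level. In other settings Cd68 probe 2 reached -0.60 and Itgam probe 3 reached -0.35. Of all 17 probes, 14 had an interval within 1.5-fold either way over both diets, 11 on the NCD and 9 on the HFD. Where an interval among the 15 reached past 1.5-fold, a difference of that size was not excluded for that probe.

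Diet gave no called member probe in either genotype. In CTR muscle 0% of all probes passed, with 0 of 17 members at an unadjusted p under 0.05 against 8.66% of all probes, and in AR113Q muscle 0.025% of all probes passed, with Ccl2 as the 1 member at an unadjusted p under 0.05 against 6.73%. Of the 17 member probes, 15 had a negative diet difference in CTR muscle, with a median of -0.16 against 0.01 over all probes, and 14 in AR113Q muscle, with a median of -0.07 against 0.00. The interaction passed for 0 of 17 members and 0% of all probes, and at an unadjusted p under 0.05 for 0 members and 4.65% of all probes.

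**Figure D2:**
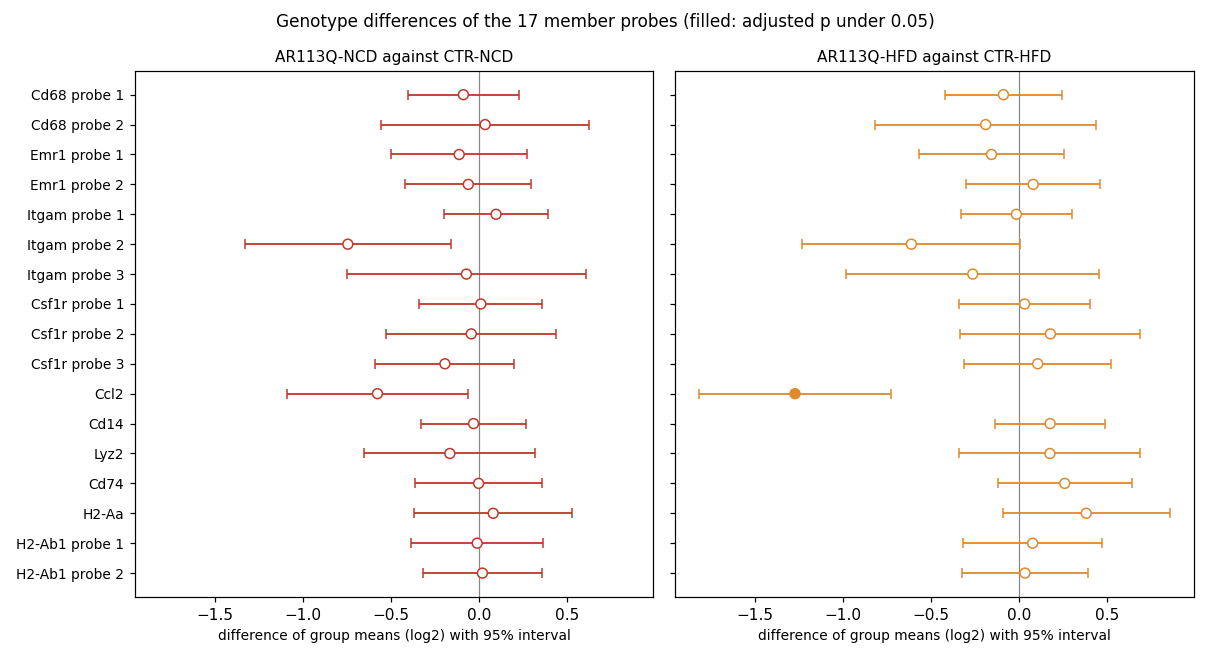
Difference between AR113Q and CTR group means (log2) with its 95% interval for each of the 17 member probes, on the NCD (left) and the HFD (right), filled where the adjusted p was under 0.05. Ccl2 on the HFD, at -1.27, is the 1 filled point, and Itgam probe 2 lies at -0.74 and -0.61.

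Although group means were close, most members rose and fell together from array to array within groups. Deviations from the group mean were compared for all 45 pairs of genes, 1 probe each, over 19 arrays, and 25 pairs passed after Benjamini-Hochberg adjustment over the 45 (2-sided permutation test, 100000 shuffles within groups), 24 by rank. Without Ccl2 and Itgam, which were set apart after their low correlations were seen, 24 of 28 pairs passed. Pearson's r of the 28 lay between 0.46 and 0.92 with a median of 0.75, and leaving out those genes raises these values. The share of pairs that pass among all genes is not given here, so these counts are not set against it. The closest pair was Emr1 and Csf1r, with r = 0.92 and rho = 0.90 (adjusted permutation p = 0.000225 and 0.00045), and r = 0.90 without the 2 arrays farthest from the median.

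The class II genes formed the tightest group. Cd74 correlated with H2-Ab1 at r = 0.91 (rho = 0.86) and with H2-Aa at r = 0.89 (rho = 0.87), and H2-Aa with H2-Ab1 at r = 0.85 (rho = 0.71), with adjusted permutation p-values of 0.0003, 0.000225 and 0.00135 for r and 0.000562, 0.00045 and 0.00841 for rho. Without the 2 farthest arrays these pairs kept r between 0.70 and 0.82. H2-Aa and H2-Ab1 are neighbours, with probes within 15049 bases on mm9 chromosome 17. Of 15 pairs of a class II gene and a macrophage gene, 11 passed, and the 4 that did not were Cd68 with H2-Aa and H2-Ab1, and Cd14 and Lyz2 with H2-Ab1.

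Ccl2 and Itgam probe 1 were set apart because they did not follow that pattern. Ccl2 correlated with the 8 other genes at r between -0.03 and 0.40, and 0 of the 8 pairs passed. Itgam probe 1 had r between -0.47 and 0.00, and its pair with H2-Ab1 passed by r (r = -0.47, adjusted permutation p = 0.0472) but not by rank (rho = -0.54, adjusted permutation p = 0.0597). Its other 2 probes had medians of 0.30 and 0.21 over the 8 genes at 1 probe each, 0 of 8 passing for each. Over all 136 pairs of member probes, a comparison chosen after the values were seen, Itgam probes 2 and 3 correlated with Csf1r probe 3 at r = 0.80 and 0.72 (adjusted permutation p = 0.00346 and 0.00952, rho = 0.75 and 0.71, r = 0.82 and 0.67 without the 2 farthest arrays), and 86.5% of the spread of that Csf1r probe within groups lay between slides. With the means of slides removed as well, the 28 pairs of the 8 genes so chosen had r between 0.47 and 0.96 with a median of 0.72. The class II pairs then had r between 0.92 and 0.96. These arrays share their normalization, and genes of the same cells are not independent.

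**Figure D3:**
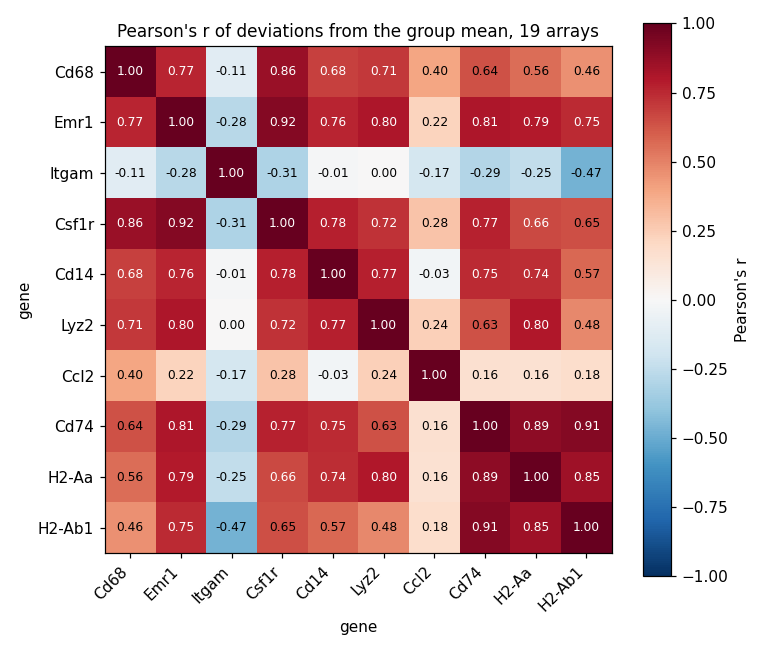
Pearson's r between member genes (1 probe each) over 19 arrays, each value taken as its deviation from the mean of its group, from blue for negative to red for positive. The 8 genes other than Ccl2 and Itgam, a set chosen after the values were seen, have r from 0.46 to 0.92 with each other. The rows of Ccl2 and Itgam (probe 1) stay at or below 0.40.

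The mean of the standardized member genes placed CTR-NCD replicate 2 highest (1.38), AR113Q-HFD replicate 3 next (1.01) and AR113Q-HFD replicate 2 lowest (-1.50). The 4 CTR-HFD arrays lay between -0.70 and -0.12. Outside the lists, the genes most like that mean over the 19 arrays were Ptpn6 (r = 0.93), Rgs10 (0.89), Cd48 (0.89), Themis2 (0.89) and Pld4 (0.88), and with group means removed r was 0.93, 0.92, 0.91, 0.88 and 0.90. Ptpn6 and Cd48 are known as genes of blood cells. The members entered this mean by choice, so its values are a description.

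Neutrophil genes stood high in 2 arrays. The summed signal of 7 neutrophil genes, which include the calprotectin gene S100a8, was 3.59 in AR113Q-HFD replicate 4 and 2.15 in AR113Q-HFD replicate 3, and between -0.39 and 1.22 in the other 17 arrays, on the log2 scale. Lyz2 and Cd14, which neutrophils also express, were highest in replicate 3 among the AR113Q-HFD arrays (0.16 and -0.52), and were at -0.20 and -0.83 in replicate 4. The part of neutrophil RNA in these values was not tested.

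For the class II genes, the promoter of H2-Aa is shown because this gene tracked the other class II genes across arrays and because promoters of this family share a Y box. RefSeq promoter sequences of GRCm38.p6 (250 bases before to 50 after the gene start) were at hand for 4 of the 10 genes, Cd68, Itgam, Lyz2 and H2-Aa. The H2-Aa promoter lies at chr17:34287774-34288073 on the minus strand, and the match to ATTGG, which began at position -48 from the gene start, is in capitals.
H2-Aa promoter: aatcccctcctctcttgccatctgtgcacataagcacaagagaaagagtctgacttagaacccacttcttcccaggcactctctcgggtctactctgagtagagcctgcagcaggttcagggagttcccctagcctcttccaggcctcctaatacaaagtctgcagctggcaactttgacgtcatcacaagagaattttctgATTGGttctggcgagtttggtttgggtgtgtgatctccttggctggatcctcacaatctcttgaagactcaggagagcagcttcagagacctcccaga
Read on both strands, ATTGG had 1 match in H2-Aa, 3 in Cd68 and 0 in Itgam and Lyz2, and 37.4% of 32851 promoters of this length held it. GAGGAA, the core bound by the macrophage factor PU.1, had 3 matches in Itgam, 2 in Cd68 and 0 in Lyz2 and H2-Aa, against 28.3% of promoters. These matches are descriptions of the sequences.

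Among 27 other macrophage genes, 1 was higher and 0 lower over both diets, where 13% and 16% of all genes were. The 1 was Mrc1, the mannose receptor of resident macrophages, at 0.32 (adjusted p = 0.0173, limma). Marco, a scavenger receptor, had -0.47, Mertk, a receptor for dying cells, 0.21 and Laptm5 -0.22, with adjusted p-values of 0.113, 0.131 and 0.165. The median of the 27 was 0.07, against -0.07 over all genes.

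The receptors and adaptors around Cd14 included genes that were higher in AR113Q muscle. Of 11 tested, 5 were higher and 0 lower over both diets, against 13% and 16% of all genes: Ticam1, Tlr4, Myd88, Irak1 and, named after its value was seen, Ly96. Tlr4, the signaling receptor for lipopolysaccharide, was at -1.71 ± 0.49 in CTR-NCD and -0.53 ± 0.18 in AR113Q-NCD (SD, n = 5 each), and at -1.71 ± 0.65 in CTR-HFD (SD, n = 4) and -0.41 ± 0.36 in AR113Q-HFD (SD, n = 5). Its difference over both diets was 1.24 ± 0.19 (SE; adjusted p = 9.74e-05, limma), 2.37-fold. A second Tlr4 probe was not well above background on enough arrays to be tested.

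Ticam1 and Myd88 encode the adaptors that carry signals from Toll-like receptors. Ticam1 was higher by 0.64 (adjusted p = 2.69e-06), Myd88 by 0.30 (adjusted p = 0.00021), the kinase gene Irak1 by 0.20 (adjusted p = 0.00381) and Ly96, which encodes the partner of Tlr4 in binding lipopolysaccharide, by 0.49 (adjusted p = 0.021, limma). The median of the 11 genes was 0.26, against -0.07 over all genes. Irak1 was read by 3 probes, of which 2 passed, and the call of Ly96 was lost without CTR-HFD replicate 4 (0.43, adjusted p = 0.0509).

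Of 17 other chemokine and chemokine receptor genes, 0 were higher and 3 lower over both diets, near the 16% of all genes that were lower. Ccl7, which draws monocytes through the same receptor as Ccl2, was lower by 0.74 (adjusted p = 0.0145, limma), Cxcl14 by 0.50 (adjusted p = 5.54e-05) and Cxcl12 by 0.24 (adjusted p = 0.0143), and Ccl6 had 0.33 (adjusted p = 0.0613). Ccl7 was at -2.75 ± 0.48 in CTR-NCD, -3.21 ± 0.56 in AR113Q-NCD (SD, n = 5 each), -2.72 ± 0.54 in CTR-HFD (SD, n = 4) and -3.74 ± 0.35 in AR113Q-HFD arrays (SD, n = 5), and it was lower on the HFD (-1.02, adjusted p = 0.0312, limma). Cxcl12 was at 4.01 ± 0.15 in CTR-NCD and 3.96 ± 0.16 in AR113Q-NCD (SD, n = 5 each). On the HFD it was at 4.08 ± 0.13 in CTR (SD, n = 4) and 3.65 ± 0.15 in AR113Q arrays (SD, n = 5), so its difference lay mostly on the HFD. The call of Cxcl12 was lost under quantile normalization and median centring, and its second probe gave -0.05. Ccr2 had -0.36 (adjusted p = 0.143).

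Within groups, the Ccl2 signal was compared with 26 chemokine, receptor and cytokine genes after the values had been seen. It correlated with Ccl7 (r = 0.73, rho = 0.67) and with Ccl12 (r = 0.67, rho = 0.75), a further ligand of Ccr2, each with an adjusted permutation p of 0.0318 for r and 0.0447 for rho. Without the 2 arrays farthest from the median, r was 0.58 and 0.72. The other 24 genes did not pass. Ccl12 had a genotype difference of 0.12 over both diets.

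Of 9 cytokine genes tested, 0 were higher and 2 lower over both diets, against 16% of all genes lower, and of the 2 only Il6 kept its call on leaving out any single array. Il6 was lower by 0.84 (adjusted p = 0.000538, limma) and Tnf by 0.69 (adjusted p = 0.0414), while Il1b had -0.64 (adjusted p = 0.139) and Osm -0.37 (adjusted p = 0.152). Il6 was at -4.80 ± 0.43 in CTR-NCD, -5.82 ± 0.32 in AR113Q-NCD (SD, n = 5 each), -5.20 ± 0.43 in CTR-HFD (SD, n = 4) and -5.86 ± 0.18 in AR113Q-HFD arrays (SD, n = 5). Its signal was low, between -6.17 and -4.44, though well above background on every array. Within slides Il6 was lower in AR113Q in 5 of 5 slides on the NCD and in 3 of 4 on the HFD. Tnf was well above background on 16 of 19 arrays, and its call was lost in 12 of 30 other settings. Leaving out 1 array at a time gave adjusted p-values of 0.0264 to 0.0914 for Tnf, over 0.05 for 10 of the 19 arrays and highest without CTR-HFD replicate 1.

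**Figure D4:**
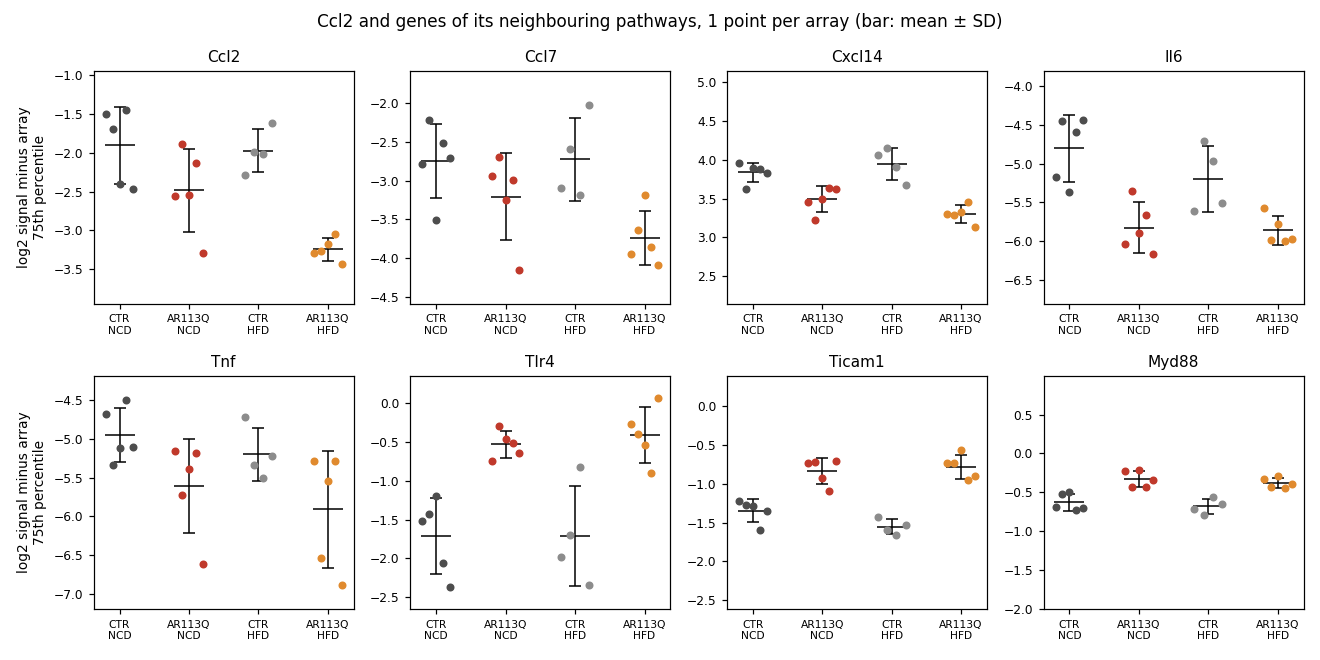
Signal of Ccl2 and of 7 genes of neighbouring pathways in every array, as log2 relative to the array's 75th percentile, in the 4 groups, with bars for mean ± SD. Ccl2, Ccl7, Cxcl14, Il6 and Tnf have lower means in AR113Q than in CTR on both diets, and Tlr4, Ticam1 and Myd88 have higher means.

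Genes of the class II pathway outside the members gave 1 higher and 1 lower of 14 tested over both diets, against 13% and 16% of all genes. Both encode subunits of the RFX complex, which binds class II promoters: Rfxap was lower by 0.42 (adjusted p = 0.00126, limma), a call lost under median centring, and Rfxank was higher by 0.24 (adjusted p = 0.00372). The class II transactivator gene Ciita had -0.55 (adjusted p = 0.0981) and Rfx5 0.53 (adjusted p = 0.146). Against 13% of all genes higher and 16% lower, 2 of 13 class I genes were higher, Tap2 (0.22, adjusted p = 0.0302) and H2-K1 (0.22, adjusted p = 0.0404), and 1 was lower, the peptide-trimming enzyme gene Erap1 (-0.29, adjusted p = 0.000119), and median centring ended all 3 calls. Leaving out 1 array at a time ended the call of Tap2 for 7 of the 19 arrays (adjusted p up to 0.0686, without CTR-HFD replicate 1) and that of H2-K1 for 14 (up to 0.0769, without CTR-HFD replicate 2).

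Marker lists of other cell types were read beside these values. Of the B cell genes, Cd79b (-0.49, adjusted p = 0.0248, limma) and Cd79a (-0.44, adjusted p = 0.0445) were lower over both diets. A second Cd79a probe gave -0.13, and the call of Cd79a was lost on leaving out any of 13 single arrays, with an adjusted p of 0.102 without CTR-HFD replicate 1. Of 6 T cell, 7 neutrophil, 5 dendritic cell, 6 mast cell, 6 endothelial and 6 white adipocyte genes, 0 passed in limma, against 29% of all genes. At an unadjusted p under 0.05 in limma, 1, 0, 1, 0, 1 and 1 of these genes, read by 1 probe each, did. The share at that threshold was 38.5% when counted over all probes and not over genes. Of 6 fibroblast genes, 1 was higher, Lum (0.35, adjusted p = 0.00067, limma), against 13% of all genes. Over the 4 groups, the T cell gene Cd3e lay between -2.35 and 0.71, the B cell gene Cd79a between -4.39 and -3.13, S100a8 between -4.34 and 0.74, the dendritic cell gene Itgax between -4.21 and -2.64, the fat cell gene Adipoq between 1.07 and 3.75 and the endothelial gene Pecam1 between -0.71 and 0.13. None of these defining markers passed but Cd79a. Their part in the class II and Ccl2 values was not tested.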

How the data were processed

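Quadriceps RNA was hybridized to one-colour Agilent arrays, 1 sample per array. Per the file headers, the deposited intensity values came from Feature Extraction 10.7.3.1, run by the authors, in which local background was subtracted and spatial trends were taken out, and arrays were not yet scaled to each other. The authors also deposited a log2 table with 25944 entries, 12 of them member probes, which served as an alternative. Groups follow the sample labels.

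Control and outlier spots were dropped, the remaining spots were averaged per probe on the log2 scale, and values were set relative to the 75th percentile of their own array. Probes entered the tests when, on 4 or more of 19 arrays, a share of 0.5 or more of their spots was clearly above background. Models of the 4 groups used limma 3.58.1 (R 4.3.3), with p-values adjusted by Benjamini-Hochberg over 32026 probes. Single probes were also tested by 2-sided exact permutation over samples, within diets where diets were pooled. The number of arrays limits the precision. For lists, a gene was read by the probe well above background on most arrays and, among equals, the one with the highest mean, and probes are numbered in that order.

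The members and lists were chosen with earlier results of these data known. The text names every member probe and, per list, up to 4 genes with the smallest adjusted p over both diets. A result of the B cell list is not reported here, nor are its count and sum. The model was tested on simulated data (AR113Q-HFD against CTR-HFD, 32026 probes, 200 changed): 61% of changes of 1 on the log2 scale were recovered, and 7.55% of the probes called were false. The simulated noise was independent between probes and arrays, and in the real comparison 17.9% of probes passed. These rates are therefore not those of the real comparison. Alternatives covered scaling (quantile, median, normexp with offset 50), the authors' values, other probe filters, outlier spots kept, slide and replicate blocks, array weights, another variance estimate, only the groups compared, other call rules and each array left out. Replicate numbers were checked for pairing: deviations of same-numbered arrays correlated at 0.236 to 0.447 in all 5 pairs of CTR-NCD and AR113Q-NCD, whose equal numbers also share a slide, and fell below 0.1 in at least 1 pair of every other combination of groups. Figures were drawn with matplotlib 3.10.9.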

Additional observations from a re-analysis of the deposited data

Results flagged for a closer look

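In groups of 4 or 5 arrays, 8 of the 180 groups examined, over 45 probes, held 1 array far from the others, and chance gives about 1 in 20 groups. Among the members, Cd68 probe 1 was at 0.0536 in AR113Q-HFD replicate 2, against 0.58 to 0.77 in the other 4 arrays of that group, and Itgam probe 1 was at 2.44 in CTR-NCD replicate 4, against 2.70 to 2.79.

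Among the other genes named, Mertk was at -1.41 in AR113Q-HFD replicate 3, against -1.84 to -1.72, and Irak1 at 1.80 in CTR-NCD replicate 3, against 1.85 to 1.86. Cxcl12 was at 4.28 in CTR-HFD replicate 3, against 4.0 to 4.03, and at 3.39 in AR113Q-HFD replicate 3, against 3.68 to 3.76. Rfxap was at -1.07 in CTR-NCD replicate 5, against -1.42 to -1.33, and Rfxank at 0.30 in CTR-NCD replicate 4, against 0.58 to 0.60.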

How the results depend on the processing

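Over both diets, Ccl2 was lower and passed the threshold in 31 of 31 other settings, between -1.0 and -0.82 on the log2 scale, and on the HFD in 30 of 31. Normexp correction ended that call (-0.79, adjusted p = 0.275) and left 0 member probes called on the HFD and 1 over both diets, where Itgam probe 2 had -0.63 (adjusted p = 0.106). Under normexp the 10th percentile of the corrected log2 signal was 8.18 to 9.86 on 5 arrays and 5.96 to 6.19 on the other 14. On the NCD, 1 member probe was called with quantile normalization or the slide as a block, and 2 with the replicate block or at an unadjusted p under 0.05. On the HFD, 2 were called with the slide or the replicate block. With fold thresholds 1 was called over both diets, and at an unadjusted p 1 for diet in AR113Q muscle and 1 for diet over both genotypes. Leaving out each array in turn gave 0 to 1 on the NCD, with 1, Itgam probe 2, without CTR-NCD replicate 2 or AR113Q-NCD replicate 4, 1 to 1 on the HFD, 2 to 2 over both diets, 0 to 0 in every other comparison, and 20 to 26 correlated pairs against 25. The replicate block changed no other call of a member. Ticam1, Tlr4, Rfxank, Lum and Ckm passed over both diets in 31 of 31 settings, and normexp ended the calls of the other genes named as changed. Itgam probe 1 turned to -0.25 over both diets in the authors' values (adjusted p = 0.0243), where its values correlated with the intensities at r = 0.08 over 19 arrays, against 0.82 to 0.99 for the other 11 member probes in that table. The authors' values hold 7 of the 10 probes used for correlation, and 6 pairs passed. No scaling but normexp moved the median of all probes by over 0.1, and under normexp it reached -0.64 for CTR-HFD against CTR-NCD, against 0.01 with the 75th percentile.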
